A study of Mus musculus with 18 samples.

Results

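Autophagy genes were followed through heat shock (HS) and tunicamycin (Tu) in mouse fibroblasts. Members were 38 genes named by their known roles, at a time when earlier results of these data were known. Of these, 35 were listed under those names among the 20207 genes of the files. All 35 had at least 1 read in each of the 18 libraries and entered the tests on 12731 genes. The remaining 3, Atg14, Vmp1 and Tfeb, were listed under the older symbols D14Ertd436e, Tmem49 and Tcfeb and are described separately. The cells were NIH3T3, an immortalised mouse embryonic fibroblast line, and mRNA levels were measured by sequencing of poly(A) RNA. According to the study's methods, every group carried a stably integrated DD-GFP, a destabilizing domain derived from FKBP and fused to superfolder GFP. Cells with high GFP had been sorted, and the ligand Shield-1, which keeps the domain folded, stayed in the medium throughout. Per the labels there were 6 groups of 3 libraries each, namely the reference with no stress at 0 min, HS for 45 or 135 min, and Tu for 45, 135 or 405 min. None of these groups was left unstressed until 45, 135 or 405 min, so a stress and the time in culture cannot be told apart. HS was a shift of the culture to a higher temperature, and tunicamycin is an inhibitor of N-linked glycosylation that causes unfolded protein to build up in the endoplasmic reticulum (ER). A sorted pool of a single immortal line is a narrow model of a fibroblast, and the labels do not say whether the 3 libraries of a group came from separate cultures, so p-values measure the spread between these libraries, which may be technical.

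Autophagy encloses cytoplasm in a double membrane, the autophagosome, which then fuses with the lysosome. The ULK1 kinase complex and the class III phosphatidylinositol 3-kinase (PI3K) complex start the membrane, and ATG9 vesicles, the lipid transfer proteins ATG2A and ATG2B and the WIPI proteins enlarge it. A set of ubiquitin-like conjugation enzymes attaches proteins of the ATG8 family (LC3 and GABARAP) to the membrane lipid. Cargo receptors such as p62, encoded by Sqstm1, bind ATG8 proteins on one side and ubiquitylated or organelle cargo on the other. In many cell types both cytosolic protein damage and ER stress are known to raise transcription of some of these genes, and mRNA levels say nothing of the flux through the pathway.

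Each library held 33415592 to 66478268 reads on genes, so that 3 reads corresponded to 0.0451 to 0.0898 CPM (read counts scaled to library size), and reads on a member ranged from 6 for Atg10 to 177200 for Sqstm1. Genes that mark the stresses differed in level between times and libraries. Hspa1b, an inducible Hsp70 gene, stood at 5.47 to 6.30 CPM in the reference and at 280, 223 and 46.0 CPM in the 3 HS 45 min libraries, the lowest being replicate 3. Hsph1, another heat shock gene, stood at 159 to 235 CPM in the reference and at 504, 292 and 499 CPM at 45 min of HS, the lowest being replicate 2. At 135 min of HS Hspa1b was at 263, 1142 and 1214 CPM and Hsph1 at 2717, 1242 and 2124 CPM. Hspa5, the ER chaperone BiP, stood at 656 to 736 CPM in the reference, at 923 to 955 CPM at 45 min of Tu, below every reference library at 135 min of Tu (333 to 491 CPM) and at 8805 to 9292 CPM at 405 min of Tu. Ddit3 (Chop), the other gene taken to mark Tu, was above every reference library (69.4 to 74.0 CPM) at each Tu time. It stood at 416 to 689 CPM at 45 min, 161 to 287 CPM at 135 min and 2165 to 2864 CPM at 405 min. Libraries of a group also differed in their balance between GC-rich and GC-poor transcripts, measured as the median log2 deviation of the most GC-rich genes (55.3% or above) less that of the most GC-poor (45.8% or below). This tilt was 0.83 and 1.02 in HS 45 min replicates 1 and 2 against -0.35 in replicate 3, 1.10 in HS 135 min replicate 2 against -0.42 in replicate 1, 0.60 in Tu 135 min replicate 1 against -0.28 in both others, and 0.06 in reference replicate 1 against -0.58 and -0.59. It lay between -0.29 and -0.06 in the 3 libraries of Tu 405 min. Fibroblast markers (7 of 7 listed) summed to 9024 to 9515 RPKM in the reference and 4216 to 4717 RPKM at 405 min of Tu, while 4 epithelial markers together stayed at or below 0.366 RPKM and 3 endothelial markers at or below 0.122 RPKM in every library. The 3 blood markers summed to 2.22 to 4.50 RPKM, with Cd14 at 1.81 to 4.35 RPKM, Cd79a at up to 1.34 RPKM and Ptprc at or below 0.00532 RPKM, and the 3 neural markers to 2.14 to 4.03 RPKM except at 405 min of Tu (11.3 to 11.9 RPKM, nearly all from Tubb3, with Gfap at or below 0.0203 RPKM). The part of these marker shifts in the results was not tested. In bulk RNA, fewer cells of a type and less RNA per cell cannot be told apart.

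In unstressed cells the autophagy genes spanned a wide range of levels, with a cargo receptor and the ATG8 family at the top. RPKM, the read count scaled to gene length and library size, was used to compare genes. Sqstm1 stood highest at 292 ± 10.7 RPKM (SD, n = 3), and the 5 ATG8 genes followed, Gabarap at 128 ± 19.9 RPKM, Map1lc3b at 101 ± 19.2 RPKM, Gabarapl1 at 50.7 ± 6.67 RPKM, Gabarapl2 at 40.1 ± 3.80 RPKM and Map1lc3a at 35.4 ± 2.64 RPKM. The lowest were Rb1cc1 (2.30 ± 0.854 RPKM), which encodes the scaffold FIP200 of the ULK1 complex, the receptor gene Optn (1.87 ± 0.256 RPKM), the ATG8 protease gene Atg4c (1.34 ± 0.335 RPKM) and Atg10 (0.520 ± 0.187 RPKM), whose product is the E2-like enzyme for ATG12. The median member stood at 11.4 RPKM and the median of all genes tested at 6.65 RPKM. Of the 34 pairs of neighbours in this order, 27 overlapped between their 3 libraries, so that most of the order between Wipi2 (25.8 RPKM) and Atg4d (4.34 RPKM) was not resolved. A clear step separated Sqstm1 from Gabarap, Map1lc3b from Gabarapl1 and Map1lc3a from Wipi2.

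**Figure D1:**
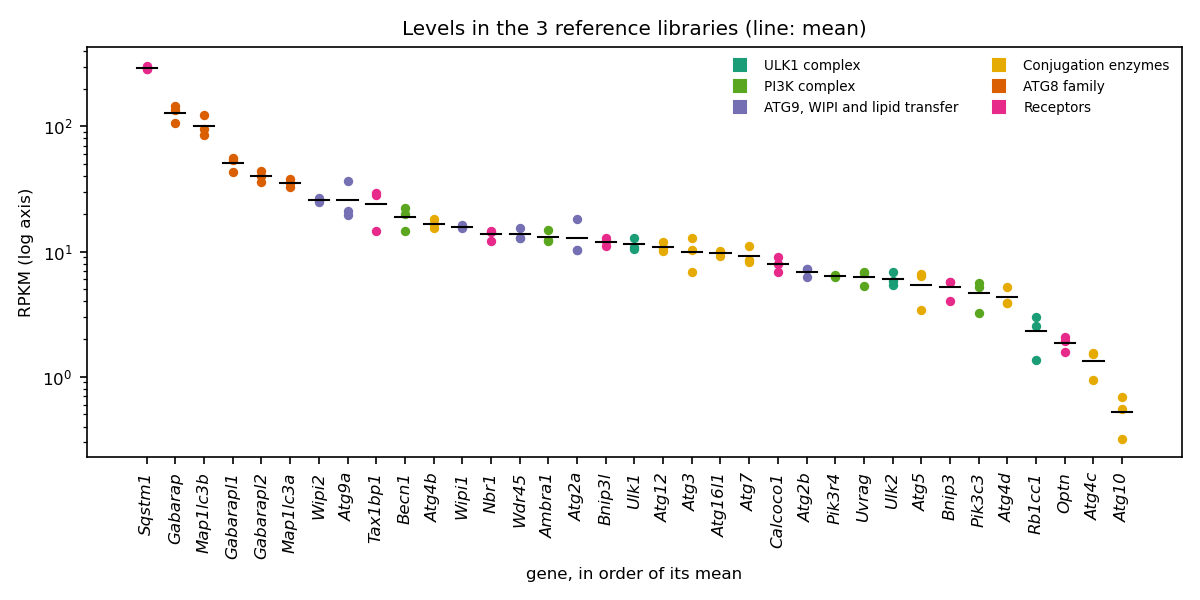
Level of each autophagy gene in the 3 reference libraries, in RPKM on a log axis, ordered by the mean, which is drawn as a line; colours give the role. Sqstm1 at 292 RPKM and the 5 ATG8 genes at 35.4 to 128 RPKM occupy the first 6 places, and Atg10 at 0.520 RPKM the last.

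Most calls of members against the reference came at 405 min of Tu, as did most calls of all genes. At that time 12 members were higher and 2 lower than in the reference (edgeR quasi-likelihood test, Benjamini-Hochberg adjusted p under 0.05). Of all genes tested, 23.3% were called higher and 23.5% lower in that comparison, so the members' 34.3% higher and 5.71% lower stand against a broad change in both directions. The median log2 fold change was 0.16 over the 35 members and -0.01 over all genes. At 45 min of Tu 2 members were higher and 0 lower, against 4.01% and 2.17% of all genes, and at 135 min of Tu no member was called, against 0.126% higher and 0.00785% lower of all genes. Both HS times gave 0 calls in either direction, with a background of 0% at 45 min in both directions and of 4.75% higher and 2.64% lower at 135 min. Lack of overlap between 2 groups was common over all genes. At 405 min of Tu 29.2% of all genes were higher and 29.5% lower without overlap, and 15 and 6 of the 35 members. The heat map of all 35 members shows that columns of the same HS group looked unlike each other, whereas the 3 columns of Tu 405 min looked alike.

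**Figure D2:**
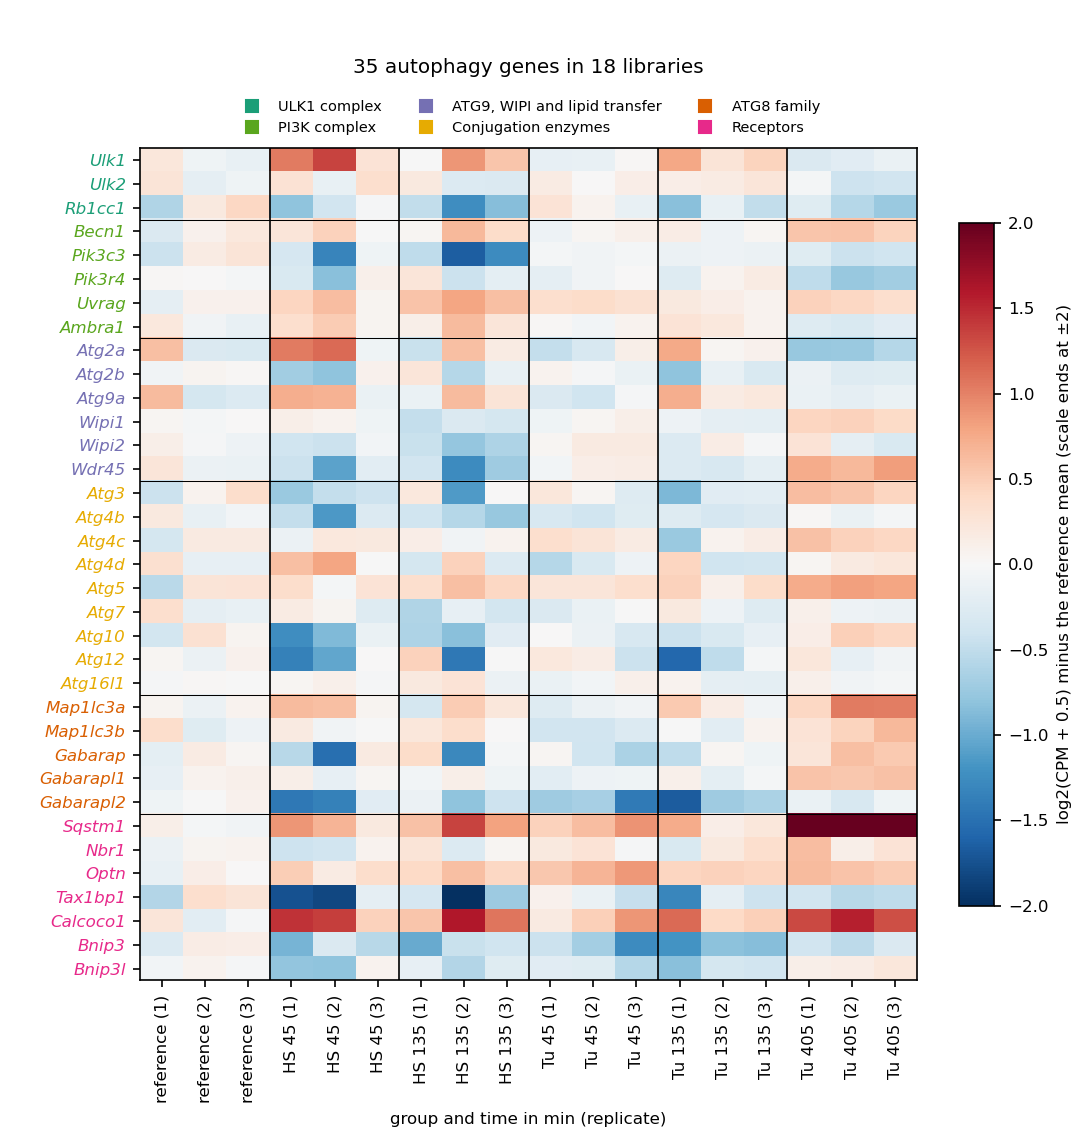
Log2(CPM + 0.5) of each of the 35 genes (rows, by role) in each of the 18 libraries (columns, by group and replicate), minus the mean of the 3 reference libraries; red is higher and blue lower, and the colour scale ends at ±2. Sqstm1 and Calcoco1 are red in all 3 Tu 405 min columns, and HS 45 min replicate 3 is paler than the other HS 45 min columns.

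Cargo receptors held the largest rises of the members at 405 min of Tu, with 3 of 7 called higher, 0 lower and a median log2 fold change of 0.37. Over all genes the shares were 23.3% higher and 23.5% lower. Sqstm1 (mm9 chromosome 11, 50013654 to 50024292) encodes p62, which gathers ubiquitylated proteins and binds LC3. It stood at 744, 664 and 650 CPM in the reference and at 2794, 2921 and 2820 CPM at 405 min of Tu. The 3 treated libraries lay close together and far above every other library of the series, of which HS 135 min replicate 2 was the highest at 1755 CPM. This was a 4.21-fold higher level on average (log2 fold change 2.07, standard error 0.138, edgeR adjusted p = 2.95e-05). Calcoco1 (chromosome 15, 102537210 to 102552500), a paralog of the receptor NDP52 that has been described as a receptor for ER and Golgi membrane, stood at 29.9, 21.7 and 24.7 CPM in the reference and 63.7, 75.2 and 62.5 CPM at 405 min. All treated libraries exceeded all reference libraries (log2 fold change 1.42, standard error 0.16, edgeR adjusted p = 0.000292).

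Optn (chromosome 2, 4941688 to 4984984), which encodes optineurin, a receptor for ubiquitylated mitochondria and bacteria, was a low gene that rose from 4.67, 5.82 and 5.31 CPM to 8.39, 8.03 and 7.63 CPM. The groups did not overlap (log2 fold change 0.63, standard error 0.15, edgeR adjusted p = 0.00981). Nbr1, a relative of p62 that also binds ubiquitin, stood at 65.2 to 74.3 CPM in the reference and 77.2 to 109 CPM at 405 min and missed the threshold (log2 fold change 0.37, adjusted p = 0.0731, edgeR). Of the other receptors, Tax1bp1, a ubiquitin-binding receptor, had a log2 fold change of -0.51 (adjusted p = 0.0932, edgeR) and the mitophagy receptor genes Bnip3 and Bnip3l had -0.41 (adjusted p = 0.0769) and 0.18 (adjusted p = 0.218). The calls of Sqstm1, Calcoco1 and Optn were kept in all 6 fits that left out 1 library, with the highest adjusted p at 0.00051, 0.0026 and 0.045 respectively.

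**Figure D3:**
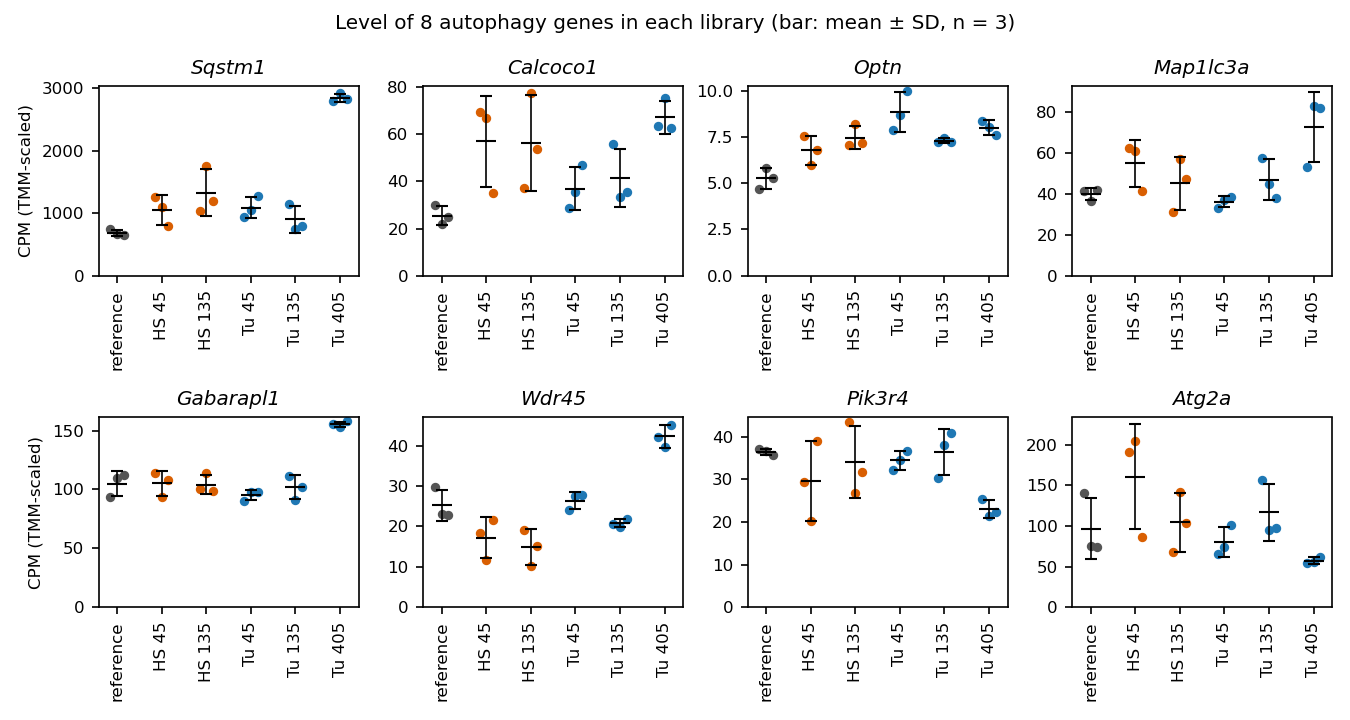
CPM, scaled by TMM over the 18 libraries, of 8 genes in each library (points, replicates 1 to 3 from left to right), with the mean (bar) and SD (whiskers, n = 3); axes start at 0. Grey is the reference, orange HS and blue Tu. Sqstm1 at 405 min of Tu (2794 to 2921 CPM) is above every other library, and Pik3r4 (21.3 to 25.4 CPM) is below every reference library.

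In the ATG8 family 3 of 5 genes were called higher at 405 min of Tu and 0 lower (23.3% and 23.5% of all genes), with a median log2 fold change of 0.48. These small ubiquitin-like proteins decorate the autophagosome and hold the receptors. Map1lc3a (chromosome 2, 155102180 to 155103809), the gene of LC3A, stood at 41.5, 36.6 and 41.9 CPM in the reference and 53.1, 83.0 and 82.0 CPM at 405 min of Tu. Replicate 1 of the treated group rose least, and the groups did not overlap (log2 fold change 0.88, standard error 0.188, adjusted p = 0.0058, edgeR). Gabarapl1 (chromosome 6, 129483210 to 129492349) was even among libraries, at 93.2, 110 and 112 CPM in the reference and 155, 153 and 158 CPM at 405 min (log2 fold change 0.59, standard error 0.117, edgeR adjusted p = 0.00439). For Gabarap the values were 145, 188 and 171 CPM against 198, 253 and 240 CPM (log2 fold change 0.48, adjusted p = 0.0282, edgeR). These groups did not overlap either, but removing reference replicate 3 or Tu 405 min replicate 2 or 3 ended the call, with an adjusted p of up to 0.119.

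Map1lc3b, the gene of LC3B, was at 169 to 256 CPM in the reference and 243 to 313 CPM at 405 min and missed the threshold (log2 fold change 0.46, adjusted p = 0.0723, edgeR). Gabarapl2, which encodes GATE-16, had the negative value of the family, at 27.8 to 31.4 CPM against 23.6 to 27.7 CPM, with a log2 fold change of -0.16 (adjusted p = 0.326, edgeR). Per length, the family summed to 343, 357 and 367 RPKM in the reference and 425, 476 and 494 RPKM at 405 min of Tu. Because Sqstm1 rose more steeply, its RPKM was 0.888, 0.804 and 0.779 of the summed ATG8 RPKM in the reference and 2.77, 2.45 and 2.29 times that sum at 405 min. At the other times the ratio was 0.918 to 1.85 for HS 45 min, 1.12 to 2.44 for HS 135 min, 1.32 to 2.10 for Tu 45 min and 0.991 to 1.60 for Tu 135 min, so that only HS 135 min replicate 2, at 2.44, reached the range of Tu 405 min. HS 135 min replicate 2 also had the highest GC tilt of all libraries (1.10). In every group except Tu 405 min, the ratio was highest in the library with the highest GC tilt of its group. At Tu 405 min it was highest in the library with the lowest tilt. These RPKM were not adjusted for GC, and the part of the tilt in the ratio was not tested. The ratio is given as a description, with no test. Several ATG8 genes are known to have processed pseudogenes in the mouse, and how the counting treated reads that match more than one place is not given in the sources used here, so their counts are less certain than those of single-copy genes.

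Among the 9 conjugation enzymes 2 were called higher at 405 min of Tu and 0 lower, with a median log2 fold change of 0.16. The 22.2% called higher was near the 23.3% of all genes, of which 23.5% were called lower. Atg5, whose product joins ATG12 and directs LC3 to the membrane, stood at 9.77, 17.3 and 17.6 CPM in the reference and 24.3, 25.7 and 25.4 CPM at 405 min. Reference replicate 1 lay well below the other two, and the change passed the threshold (log2 fold change 0.78, standard error 0.217, edgeR adjusted p = 0.0191). Without reference replicate 1 the call held, while leaving out any of the 3 Tu 405 min libraries ended it, with an adjusted p of up to 0.0636. Atg4c, a protease that trims ATG8 proteins, was low, at 3.24, 4.91 and 4.90 CPM against 6.65, 6.10 and 5.90 CPM (log2 fold change 0.54, adjusted p = 0.0494, edgeR), and its call held only without reference replicate 1. Leaving out any of the other 5 libraries (reference replicate 2 or 3 or any Tu 405 min library) gave an adjusted p of up to 0.151.

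Atg3, the E2-like enzyme for ATG8 proteins, stood at 16.8, 23.9 and 29.3 CPM against 35.3, 33.5 and 30.9 CPM. The groups did not overlap, but the adjusted p was 0.0521 (log2 fold change 0.53, edgeR). The rest of the conjugation genes, Atg7 (the E1-like enzyme), Atg10, Atg12, Atg16l1 (which places the ATG12-ATG5 conjugate on the membrane), Atg4b and Atg4d, had log2 fold changes between -0.03 and 0.47 and adjusted p between 0.209 and 0.895 (edgeR). Taking enzymes and ATG8 genes as a single conjugation group, 5 of 14 were higher and 0 lower (23.3% and 23.5% of all genes), and the median log2 fold change was 0.47.

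Initiation genes showed no common direction, with 2 of 8 higher and 1 lower at 405 min of Tu and a median log2 fold change of -0.26. These shares of 25% and 12.5% stand against 23.3% and 23.5% of all genes. Pik3r4 (chromosome 9, 105545325 to 105589985) encodes VPS15, the regulatory subunit of the PI3K complex, and stood at 37.1, 36.7 and 35.7 CPM in the reference and 25.4, 21.3 and 22.4 CPM at 405 min. Reference libraries were nearly identical and all treated libraries lower (log2 fold change -0.64, standard error 0.123, adjusted p = 0.0036, edgeR), and the call was kept in all 6 fits without 1 library. Becn1, the gene of Beclin 1, a core subunit of the same complex, went the other way, from 36.0, 46.8 and 51.2 CPM to 65.3, 66.0 and 60.1 CPM (log2 fold change 0.54, adjusted p = 0.0184, edgeR). Its call was lost without Tu 405 min replicate 1 or 2 (adjusted p up to 0.0724).

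Uvrag, a Beclin 1 partner, was at 22.2 to 26.8 CPM in the reference and 31.8 to 34.8 CPM at 405 min (log2 fold change 0.43, adjusted p = 0.0244, edgeR). That call survived only the removal of reference replicate 1, and leaving out any other library gave an adjusted p of up to 0.088. The catalytic subunit gene Pik3c3 had a log2 fold change of -0.37 (adjusted p = 0.145), and the 3 ULK1 complex genes Ulk1, Ulk2 and Rb1cc1 were all negative, between -0.56 and -0.20, without passing the threshold (adjusted p 0.115 to 0.271, edgeR). Ambra1, a regulator of Beclin 1, was lower in all 3 treated libraries (63.1 to 66.3 CPM) than in the reference (70.0 to 90.2 CPM), with an adjusted p of 0.154 (edgeR).

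In the membrane expansion group 2 of 6 genes were higher (Wdr45 and Wipi1) and 1 lower (Atg2a) at 405 min of Tu, against 23.3% and 23.5% of all genes. Wdr45 (chromosome X, 7299375 to 7305327) encodes WIPI4, a phosphoinositide-binding partner of ATG2, and stood at 29.7, 23.1 and 22.9 CPM in the reference and 42.1, 39.6 and 45.2 CPM at 405 min. The groups were well apart (log2 fold change 0.77, standard error 0.149, adjusted p = 0.0038, edgeR), and the call was kept without any 1 library. Wipi1, which binds the same lipid on early membranes, was at 32.5 to 34.5 CPM and then 43.8 to 46.6 CPM (log2 fold change 0.45, adjusted p = 0.0115, edgeR), with a call lost without reference replicate 2 or 3 or Tu 405 min replicate 2 (adjusted p up to 0.0599). Atg2a, 1 of the pair of lipid transfer genes, fell from 141, 75.4 and 74.4 CPM to 54.4, 55.2 and 61.9 CPM (log2 fold change -0.74, standard error 0.251, adjusted p = 0.0397, edgeR). Reference replicate 1, the library whose GC tilt was the highest of its group, lay far above the other two in this GC-rich gene (transcript GC 60.0%), and without it the log2 fold change was -0.36 with an adjusted p that still passed the threshold. Leaving out any of the 3 Tu 405 min libraries ended the call (adjusted p up to 0.116). Atg2b, Atg9a and Wipi2 had log2 fold changes of -0.19, -0.20 and -0.03 and did not pass (adjusted p 0.199, 0.537 and 0.893, edgeR).

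**Figure D4:**
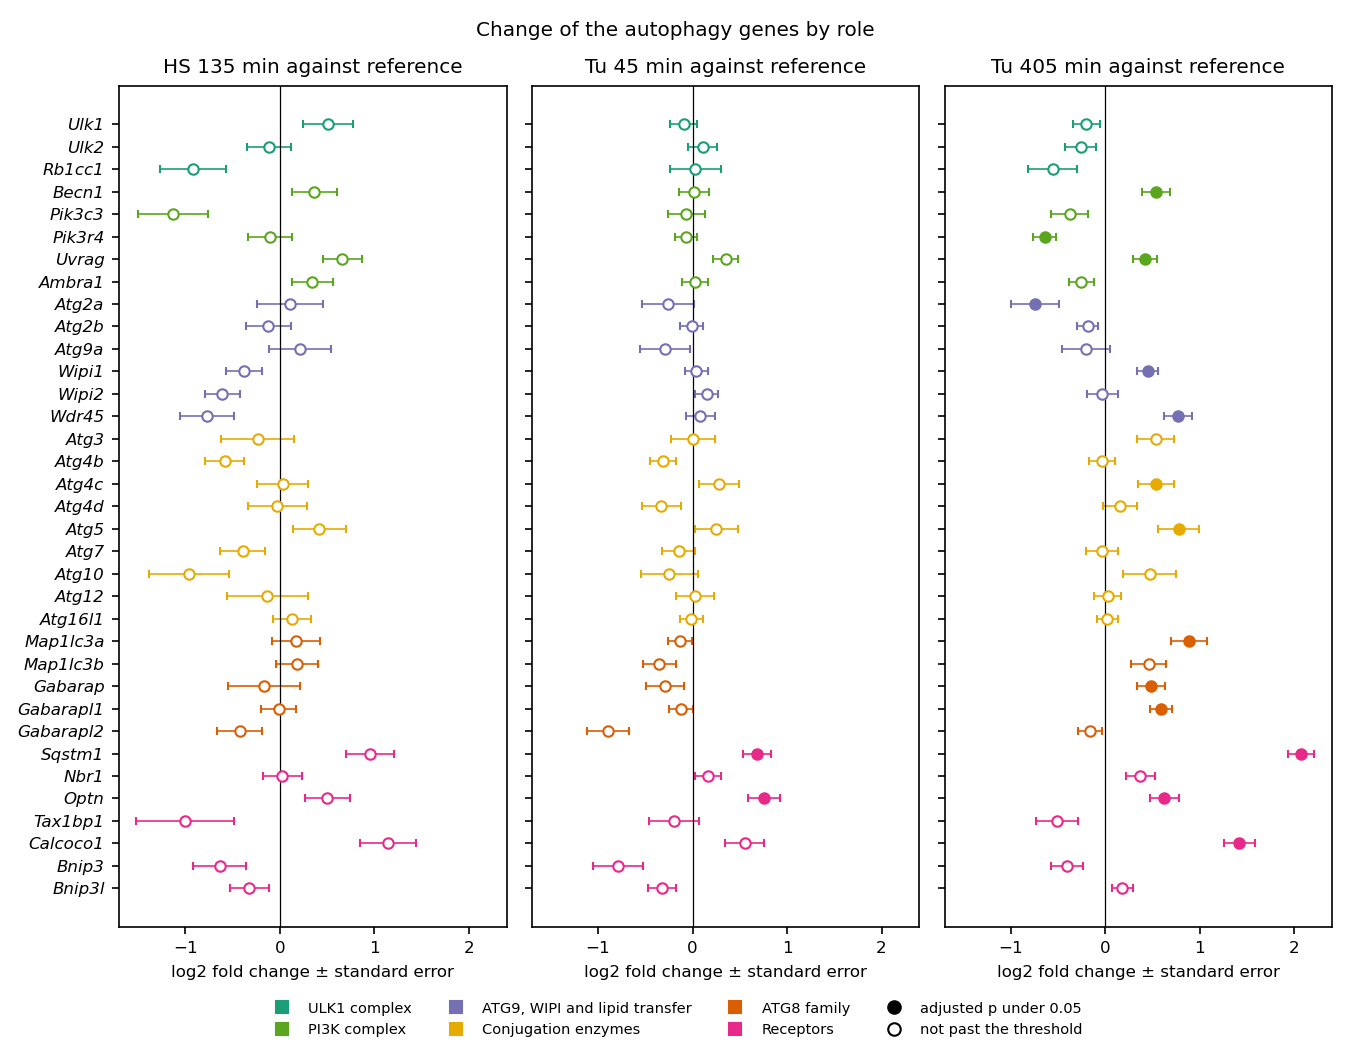
Log2 fold change against the reference with its standard error for each of the 35 genes at 135 min of HS and at 45 and 405 min of Tu; colours give the role, and filled points had an edgeR adjusted p under 0.05. No point is filled for HS, 2 receptor genes (Sqstm1 and Optn) are filled at 45 min of Tu, and 14 genes are filled at 405 min of Tu.

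Earlier in the Tu course few members were called. At 45 min Sqstm1 stood at 944, 1048 and 1279 CPM (log2 fold change 0.68, standard error 0.149, adjusted p = 0.0418, edgeR) and Optn at 7.86, 8.71 and 9.99 CPM (log2 fold change 0.76, standard error 0.17, adjusted p = 0.0441, edgeR). All 3 treated libraries were above all reference libraries for both genes. Either call remained only in the fit without reference replicate 1, and leaving out any of the other 5 libraries of the comparison (reference replicate 2 or 3 or any Tu 45 min library) ended it, with adjusted p up to 0.184 for Sqstm1 and 0.202 for Optn. With the replicate number as a block 0 members were called. On the low side, Gabarapl2 stood at 17.8, 18.4 and 10.7 CPM against 27.8, 29.3 and 31.4 CPM (log2 fold change -0.90, adjusted p = 0.0578) and Bnip3 at 7.65, 6.33 and 4.09 CPM against 8.59, 11.6 and 11.5 CPM (log2 fold change -0.79, adjusted p = 0.115), neither past the threshold of edgeR but both without overlap. All 5 ATG8 genes had a negative log2 fold change at this time, with a median of -0.29, and none was called.

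At 135 min of Tu edgeR called 0 members, and at an unadjusted p under 0.05 it counted 3 higher and 3 lower of 35, against 10.1% and 8.49% of all genes, while DESeq2 called 0 higher and 2 lower (Gabarapl2 and Bnip3), against 2.58% and 2.64%. Calcoco1 was at 55.6, 33.3 and 35.4 CPM (log2 fold change 0.72) and Ulk1, the kinase of the initiation complex, at 118, 83.1 and 93.8 CPM against 81.3, 65.0 and 62.4 CPM (log2 fold change 0.51). Replicate 1 was the highest library for both genes, and it was also the library with the strongest GC tilt of its group. Gabarapl2 was at 8.93, 17.9 and 18.9 CPM (log2 fold change -0.93) and Bnip3 at 4.31, 5.70 and 5.61 CPM (standard error of its log2 fold change 0.238, adjusted p = 0.122), both below all reference libraries. Counted over the 35 members, 4 were higher and 7 lower without overlap, against 13.7% and 13.6% of all genes.

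Between 135 and 405 min of Tu 13 members were higher and 6 lower at the later time, against 21.4% and 22.4% of all genes tested. This comparison shares its 405 min libraries with the one against the reference and is not independent of it. Conjugation genes counted 6 of 14 higher and 0 lower (median log2 fold change 0.58), receptors 4 of 7 higher and 0 lower (0.57), initiation genes 1 of 8 higher and 4 lower (-0.37), and membrane expansion genes 2 of 6 higher and 2 lower. No test of a difference between roles was run. All 5 ATG8 genes and all 7 receptors had a positive log2 fold change. The ULK1 kinase genes were lower at 405 min, Ulk1 at 56.3, 59.3 and 63.2 CPM against 118, 83.1 and 93.8 CPM (log2 fold change -0.74, standard error 0.16, adjusted p = 0.0077, edgeR) and Ulk2 at 30.6 to 39.9 CPM against 44.8 to 48.6 CPM (log2 fold change -0.47, adjusted p = 0.0324, edgeR). The groups did not overlap in either gene. This held for 18 members higher and 7 lower, against 29.8% and 26.9% of all genes. Pik3r4 (log2 fold change -0.68, adjusted p = 0.0109) and Ambra1 (-0.47, adjusted p = 0.0147) were also lower, and Becn1 was the initiation gene that was higher (0.48, adjusted p = 0.0189, edgeR). With the GC offset the calls of Becn1 (log2 fold change 0.38, adjusted p = 0.112) and of the conjugation gene Atg5 (0.34, adjusted p = 0.217, edgeR) were lost.

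In the membrane expansion group Atg2a fell to 54.4, 55.2 and 61.9 CPM from 157, 95.1 and 98.0 CPM (log2 fold change -1.05, adjusted p = 0.0058, edgeR) and Atg9a, the gene of the vesicle protein ATG9A, was lower by a log2 fold change of -0.56 (adjusted p = 0.0321), whereas Wdr45 went from 20.6, 19.8 and 21.8 CPM to 42.1, 39.6 and 45.2 CPM (log2 fold change 1.01, standard error 0.131, adjusted p = 0.00087, edgeR). No library of either time overlapped in these genes. Atg3 went from 11.9, 19.4 and 19.5 CPM to 35.3, 33.5 and 30.9 CPM (log2 fold change 0.95, adjusted p = 0.0083, edgeR), and Atg10, at 0.581 to 0.793 CPM and then 1.09 to 1.52 CPM, had the same size of change at a very low level (0.95, adjusted p = 0.0142, edgeR). Bnip3 and Bnip3l were higher than at 135 min (log2 fold changes 0.57 and 0.65, adjusted p = 0.036 and 0.0152, edgeR), Bnip3 at 7.14 to 8.47 CPM having come back from the lowest Tu values without reaching the reference range. Kept without any 1 library were the calls of Ulk1, Atg2a, Wipi1, Wdr45, Atg3, Gabarapl1 and Sqstm1. The other 12 calls were each lost in 2 to 5 of the 6 fits, with their highest adjusted p between 0.0599 and 0.143. All 12 were lost without Tu 405 min replicate 2 and also without replicate 3, which left 5 higher and 2 lower. Calls over all genes ranged from 3547 to 8126 in the 6 fits, against 2720 higher and 2846 lower in the full fit. Without Tu 405 min replicate 1, Becn1, Ambra1, Atg9a, Atg5, Calcoco1 and Bnip3 were lost, and without Tu 135 min replicate 2 or 3 Ulk2, Becn1, Atg5, Calcoco1 and Bnip3, with Map1lc3b lost without replicate 2 and Gabarap without replicate 3 of that group.

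Promoter sequence was examined for 28 of the 35 members that had an entry in the RefSeq table of windows (GRCm38.p6, 250 bases before to 50 after the start site), on both strands. The letters CACGTG, the E-box at the core of the CLEAR element to which TFEB and TFE3 are known to bind, were found in 4 of the 31 windows of these genes. The 4 belonged to Atg3, Atg5, Atg7 and Bnip3. Of 32851 promoter windows of all genes 7.15% held the letters. Of these 4, Atg3, Atg5 and Bnip3 were higher at 405 than at 135 min of Tu and Atg7 was not (log2 fold change -0.01, adjusted p = 0.961, edgeR), and the call of Atg5 was lost with the GC offset. In that comparison 13 of the 35 members and 21.4% of all genes were called higher. Against the reference at 405 min Atg5 alone of the 4 was called, with Atg3 at 0.53 (adjusted p = 0.0521), Bnip3 at -0.41 (adjusted p = 0.0769) and Atg7 at -0.03 (adjusted p = 0.889, edgeR). There 12 of the 35 members and 23.3% of all genes were called higher. A link between the E-box and these changes was not tested. The longer palindromic CLEAR element, which contains the E-box, was in no member window (0.326% of all), nor were TGATGNAAN for the ATF4 and C/EBP element (3.95%), the ER stress element (0.119%) or the heat shock element (0.603%). The 150 bases before the start site are shown, 5′ to 3′ on the gene's strand, for the 4 genes with the E-box and for Sqstm1, the gene with the largest change and without it, with CACGTG in capitals. They lie at chr16:45158679-45158828 (plus strand), chr10:44268189-44268338 (plus), chr7:138909507-138909656 (minus), chr6:114670946-114671095 (plus) and chr11:50210821-50210970 (minus) of GRCm38.p6, a later build than the mm9 of the files. The Atg7 window belongs to a start site that was not found among the transcript starts of the mm9 annotation, unlike the other 4.
Atg3: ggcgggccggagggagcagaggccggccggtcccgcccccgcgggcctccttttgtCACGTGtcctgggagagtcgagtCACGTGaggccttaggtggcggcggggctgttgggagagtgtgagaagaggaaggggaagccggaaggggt
Atg5: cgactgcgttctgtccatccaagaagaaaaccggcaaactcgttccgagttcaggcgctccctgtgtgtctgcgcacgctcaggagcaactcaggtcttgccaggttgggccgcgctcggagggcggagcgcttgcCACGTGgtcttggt
Bnip3: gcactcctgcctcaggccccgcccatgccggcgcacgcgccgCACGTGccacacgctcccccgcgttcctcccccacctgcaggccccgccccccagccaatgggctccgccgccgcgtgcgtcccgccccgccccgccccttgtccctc
Atg7: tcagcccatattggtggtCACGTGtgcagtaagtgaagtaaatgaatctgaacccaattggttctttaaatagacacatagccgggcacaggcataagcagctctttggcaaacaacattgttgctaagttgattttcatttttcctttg
Sqstm1: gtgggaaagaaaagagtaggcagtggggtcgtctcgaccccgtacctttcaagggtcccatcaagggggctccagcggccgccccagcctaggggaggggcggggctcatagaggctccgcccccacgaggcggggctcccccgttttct
Counted from the start site, the E-box begins at -94 and again at -71 in Atg3, at -14 in Atg5, at -108 in Bnip3 and at -132 in Atg7. A match of these letters is a description of the sequence and shows no binding.

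Heat shock gave no member past the threshold at either time. At 45 min an unadjusted p under 0.05 in edgeR was reached by 3 members higher and 1 lower, against 12.3% and 7.16% of all genes, and DESeq2 called Calcoco1 higher and no member lower, against 3.03% and 0.511%. Calcoco1 stood at 69.5, 66.9 and 34.9 CPM against 29.9, 21.7 and 24.7 CPM in the reference (log2 fold change 1.17), Ulk1 at 142, 176 and 83.8 CPM against 81.3, 65.0 and 62.4 CPM (0.95) and Sqstm1 at 1266, 1101 and 788 CPM against 744, 664 and 650 CPM (0.62). In each of these genes all 3 heated libraries were above all reference libraries and replicate 3 was the lowest of them. Gabarapl2 was below all reference libraries at 10.6, 11.2 and 25.1 CPM (log2 fold change -0.92), as was Atg4b at 41.3, 25.7 and 47.9 CPM against 52.4 to 66.2 CPM (-0.60), again with replicate 3 nearest to the reference. Altogether 4 members were higher and 4 lower without overlap, against 12.5% and 12.8% of all genes. Without HS 45 min replicate 3, edgeR called 7 members higher (Calcoco1, Ulk1, Sqstm1, Uvrag, Atg2a, Atg4d and Map1lc3a) and 8 lower (Gabarapl2, Atg2b, Atg4b, Atg10, Atg12, Gabarap, Tax1bp1 and Bnip3l), and 5786 of all genes. Replicate 3 also had the weakest Hspa1b level of its group, but not the weakest Hsph1 level (504, 292 and 499 CPM in replicates 1 to 3). Its GC tilt was opposite to that of replicates 1 and 2, and the part of these differences in the counts was not tested.

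After 135 min of HS 3 members were higher and 5 lower at an unadjusted p under 0.05 (edgeR), against 16.1% and 13.5% of all genes, and DESeq2 called 3 higher (Sqstm1, Calcoco1 and Uvrag) and 1 lower (Pik3c3), against 9.68% and 7.28%. The nearest to the threshold were receptors. Calcoco1 was at 37.3, 77.7 and 53.6 CPM (log2 fold change 1.14, standard error 0.301, adjusted p = 0.0565, edgeR) and Sqstm1 at 1033, 1755 and 1192 CPM (log2 fold change 0.95, standard error 0.257, adjusted p = 0.0601, edgeR). Each was above all reference libraries, with replicate 2 the highest. Uvrag was at 37.6, 44.0 and 38.4 CPM against 22.2 to 26.8 CPM (0.66) and Optn at 7.05 to 8.20 CPM against 4.67 to 5.82 CPM (0.50). Below all reference libraries, without passing the threshold, were Pik3c3 at 11.5, 4.90 and 6.63 CPM against 12.1 to 19.9 CPM (log2 fold change -1.13), Wdr45 (-0.77), Bnip3 (-0.64), Wipi2 (-0.61) and Atg4b (-0.58). Over all members 5 were higher and 8 lower without overlap, against 18.1% and 19.0% of all genes. Without HS 135 min replicate 1, Sqstm1 and Calcoco1 passed as higher and Pik3c3 and Wipi2 as lower.

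Across the 35 members the HS changes followed the GC content of the transcript. Spearman's rho between log2 fold change and GC content, which ran from 39.1% in Rb1cc1 to 63.1% in Map1lc3a, was 0.691 at 45 min and 0.492 at 135 min of HS, 0.661 at 135 min of Tu, 0.00252 at 45 min and 0.0975 at 405 min of Tu. These are descriptions across genes that share the same libraries. With an offset for the GC trend of each library, rho became -0.0423 and -0.0723 for the HS times and 0.323 for Tu at 135 min. In that fit the HS 45 min log2 fold change of Calcoco1 was 0.58 and that of Ulk1 0.33, with adjusted p of 0.14 and 0.183 (edgeR). At 135 min of HS, by contrast, the GC offset left Sqstm1 at 0.75 (adjusted p = 0.015) and Calcoco1 at 0.72 (adjusted p = 0.0158), both past the threshold of edgeR, with 5 members lower (Pik3c3, Wipi1, Wipi2, Atg4b and Atg7). At 405 min of Tu Sqstm1 had a log2 fold change of 1.99 with the offset (adjusted p = 1.22e-05).

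**Figure D5:**
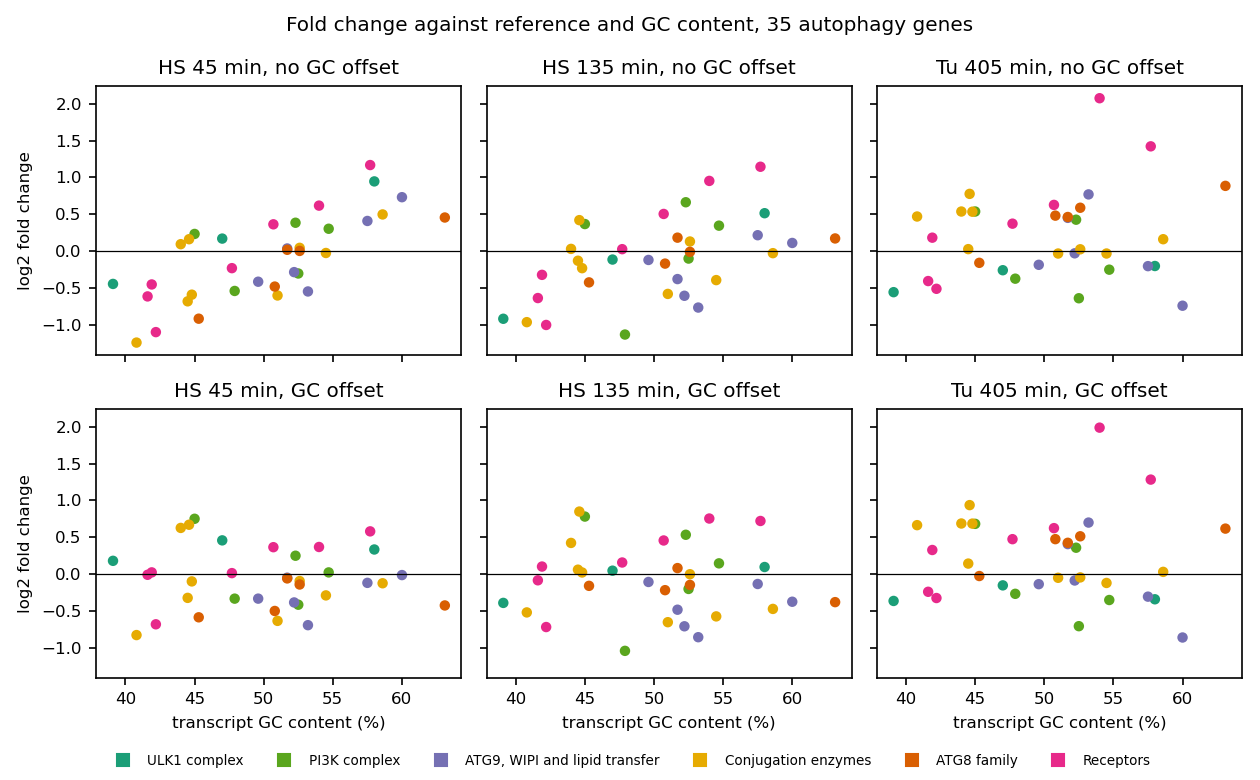
Log2 fold change against the reference of the 35 genes (coloured by role) plotted against the GC content of their transcripts, for HS at 45 and 135 min and Tu at 405 min, without (top) and with (bottom) an offset for the GC trend of each library. The upward slope at HS 45 min (Spearman's rho 0.691) is gone with the offset (-0.0423), and Tu 405 min has little slope without it (0.0975).

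Other ways of fitting changed several of these counts. With the GC offset 0 members were called at HS 45 min, 2 higher and 5 lower at HS 135 min (9.88% and 9.90% of all genes), 3 higher and 2 lower at Tu 45 min (8.68% and 6.57%), and 0 higher and 1 lower (Bnip3) at Tu 135 min (1.41% and 1.01%). That fit gave 15 higher and 4 lower at Tu 405 min (26.3% and 26.3%), 15 higher and 6 lower between the later Tu times (26.3% and 26.6%), and 0 higher and 2 lower (Pik3c3 and Atg2a) for HS against Tu at 135 min (6.05% and 5.76%). A single fit of all 6 groups called 2 members higher (Ulk1 and Calcoco1) and 0 lower at HS 45 min (7.27% and 3.30%), 4 higher and 6 lower at HS 135 min (14.4% and 11.1%), 1 higher and 0 lower at Tu 45 min (3.32% and 1.64%), and 0 higher and 1 lower at Tu 135 min (1.83% and 1.40%). It gave 10 higher and 1 lower at Tu 405 min (15.8% and 16.1%), 10 higher and 4 lower between the later Tu times (17.3% and 18.1%), and 1 higher (Uvrag) and 1 lower (Wipi2) for HS against Tu (7.84% and 6.07%). DESeq2 called 2 higher and 2 lower at Tu 45 min (7.63% and 6.84%), 13 higher and 2 lower at Tu 405 min (24.7% and 24.8%), and 15 higher and 6 lower between the later Tu times (23.1% and 23.5%). In every one of these fits 10 members were called higher at Tu 405 min, and Pik3r4 was called lower. The 10 were Becn1, Uvrag, Wipi1, Wdr45, Atg5, Map1lc3a, Gabarapl1, Sqstm1, Optn and Calcoco1. With the replicate block Uvrag was not called, and the calls of Becn1, Uvrag, Wipi1 and Atg5 were lost in some fits without 1 library.

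HS and Tu were compared directly at 135 min, where edgeR called no member in either direction against 1.30% higher in HS and 0.817% lower of all genes. At an unadjusted p under 0.05 there were 1 higher (Uvrag) and 2 lower members (Pik3c3 and Wipi2), against 10.2% and 9.75%, and DESeq2 called 0, against 5.62% and 4.25%. The log2 fold change of HS over Tu was 0.54 for Sqstm1 (standard error 0.281) and 0.42 for Calcoco1 (standard error 0.327), neither of which passed the threshold (adjusted p = 0.341 and 0.533). Pik3c3 differed most, at 11.5, 4.90 and 6.63 CPM with HS and 15.1, 15.3 and 15.2 CPM with Tu (log2 fold change -1.01, standard error 0.336), and passed only without HS 135 min replicate 1 (adjusted p = 0.046, edgeR) or with the GC offset (adjusted p = 0.0425), of the alternatives run.

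A list of 38 other genes of the pathway and its regulators counted 13 higher and 6 lower at 405 min of Tu, against 23.3% and 23.5% of all genes, a background that also applies to the smaller lists that follow. Among 10 further core genes 5 were higher and 0 lower, led by Atg13, listed as D2Ertd391e, an essential partner of the ULK1 kinase, at a mean of 29.8 CPM in the reference and 127 CPM at 405 min (log2 fold change 2.12, standard error 0.116, adjusted p = 1.42e-05, edgeR). This subunit of the ULK1 complex rose about as much as Sqstm1, while Ulk1, Ulk2 and Rb1cc1 had negative log2 fold changes and no call. Atg16l2, at means of 19.1 and 37.6 CPM (adjusted p = 0.000616), and Tmem41b, an ER lipid scramblase (0.92, adjusted p = 0.0142), rose as well. Of 9 genes for autophagosome fusion 4 fell and 0 rose, among them the lysosomal membrane protein gene Lamp2 (log2 fold change -1.45, adjusted p = 0.000236), Fyco1, a transport adaptor (-1.52, adjusted p = 0.00327), and the SNARE genes Snap29 (-0.72, adjusted p = 0.00332) and Stx17 (-0.42, adjusted p = 0.0357, edgeR).

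Of 6 ER-phagy receptor genes 3 rose at 405 min of Tu (Sec62 at 0.94, Fam134b at 0.68 and Tex264 at 0.43 on the log2 scale) and Atl3 fell by 0.67 (adjusted p = 0.0117, 0.041, 0.0351 and 0.0099, edgeR), while at 135 min of HS Fam134b (1.56, adjusted p = 0.0401) and Ccpg1 (1.11, adjusted p = 0.0429) were higher. With the replicate number as a block no gene at all was called at 135 min of HS. Among 7 other receptors and adaptors Ncoa4, the ferritin receptor, rose by 1.31 (adjusted p = 0.0051). Of 6 transcription factors Atf4 and Ddit3, which act in the integrated stress response, and Tfe3 rose at 405 min, Tfe3 from a mean of 131 to 221 CPM (log2 fold change 0.77, adjusted p = 0.00437, edgeR), and Foxo1 fell (-0.66, adjusted p = 0.0164). Of the same 6, 3 were called higher at 135 min of HS and 2 at 45 min of Tu. Atf4 had a mean of 480 CPM in the reference, 1430 CPM at 135 min of HS and 1446 CPM at 405 min of Tu. For Ddit3 the means were 71.9 CPM in the reference, 360 CPM at 135 min of HS, 542 CPM at 45 min of Tu and 2630 CPM at 405 min of Tu. The whole list of 38 genes counted 0 calls at HS 45 min, Tu 135 min and HS against Tu at 135 min, 3 higher at 45 min of Tu (4.01% of all genes) and 6 higher at 135 min of HS (4.75% of all genes). Of the 3 members listed under older symbols, none was called against the reference at any time, and Tfeb, a master regulator of lysosomal genes, was lower at 405 than at 135 min of Tu (6.20, 7.64 and 6.78 CPM against 18.1, 9.41 and 10.1 CPM, log2 fold change -0.89, adjusted p = 0.0303, edgeR). Its highest value at 135 min was in replicate 1, the library with the strongest GC tilt of its group. For these 3 genes and for the list of other genes, the alternative fits are not given. Atg14, a PI3K complex subunit, was at 6.65 to 7.37 CPM in the reference and 8.27 to 11.4 CPM at 405 min, and Vmp1, an ER scramblase, at 16.4 to 28.2 and 27.4 to 32.3 CPM.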

How the data were processed

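The authors sequenced poly(A) RNA of 18 libraries on an Illumina instrument, and obtained values per RefSeq gene from mm9 alignments on the DNAnexus platform. The aligner, counter and versions are not given in the sources used here. Some libraries were made with another kit, and which ones is not stated. The authors deposited, per library, an estimated count of reads per gene with 4 significant digits and an RPKM value. They also deposited a score (the RPKM centred and divided by its SD) and a signal (the RPKM divided by its root mean square), which were not tested.

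Estimated counts were rounded and genes with at least 1 read in all 18 libraries were tested, 3 against 3, by edgeR 4.0.16 (TMM, quasi-likelihood, R 4.3.3) with Benjamini-Hochberg adjustment at 0.05. Printed CPM were scaled by TMM over all libraries. Alternatives were DESeq2 1.42.0 size factors and Wald test, no filter on low counts, 1 fit of all 6 groups, a replicate block, a GC offset, both together, and leaving out each library. Simulated data were used to test only the main edgeR fit, for some of the comparisons, and the outcome is not given here. The simulated libraries had no GC tilt. The alternatives were not tested in this way. Genes were named where they passed the threshold, or where no libraries overlapped and the log2 fold change was at least 0.5 in size; others show the rest of a role. Members and lists were chosen with earlier results of these data known.

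No 2 libraries of a group agreed within sampling noise. Same-numbered libraries deviated together only for Tu 135 min against the reference (r = 0.335, 0.314 and 0.284), where the block called 0 of all genes against 17 without it. Transcript GC content came from the mm9 transcripts for 96.6% of genes and for all members.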

Additional observations from a re-analysis of the deposited data

Results flagged for a closer look

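Levels differed between 135 and 405 min of Tu, by the edgeR test of the 405 min against the 135 min libraries, for 19 of the 35 genes. Of all genes tested, 21.4% were higher and 22.4% lower at 405 min. Without Tu 405 min replicate 2 or 3, 5 members were higher and 2 lower. Over all genes the full fit called 2720 higher and 2846 lower, and leaving out 1 library gave 3547 to 8126 calls. With the GC offset the calls of Becn1 and Atg5 were lost. No untreated libraries stand beside these times, so Tu and time in culture cannot be told apart. Lower at 405 min were Ulk1 (log2 difference -0.74), Ulk2 (-0.47), Pik3r4 (-0.68), Ambra1 (-0.47), Atg2a (-1.05) and Atg9a (-0.56). Higher were Becn1 (0.48), Wipi1 (0.57), Wdr45 (1.01), Atg3 (0.95), Atg5 (0.45), Atg10 (0.95), Map1lc3b (0.49), Gabarap (0.61), Gabarapl1 (0.59), Sqstm1 (1.64), Calcoco1 (0.67), Bnip3 (0.57) and Bnip3l (0.65). No member passed the same test between HS and Tu at 135 min.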

How the results depend on the processing

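Over 64 pairs of a named gene and a comparison, 832 values were recomputed. None changed direction, 663 stayed on their side of the threshold, 112 lost it and 57 gained it. Members called higher changed from 0 to 1 at HS 45 min by the DESeq2 test and to 2 in the shared fit of 6 groups. For HS 135 min the change was from 0 higher and 0 lower to 3 and 1 (DESeq2), 4 and 6 (shared fit) and 2 and 5 (GC offset). Tu 45 min, with 2 higher and 0 lower, had 1 higher with DESeq2 size factors, with the shared fit or with the GC offset and the block, 0 higher with the block, and 2 lower with DESeq2 or the GC offset. Tu 135 min had 2 lower with DESeq2 and 1 lower with the shared fit or the GC offset. Tu 405 min had 1 lower with the shared fit or the block and 4 lower with the GC offset, alone or with the block. HS against Tu had 1 higher and 1 lower with the shared fit and 2 lower with the GC offset. Tu 405 against 135 min had 8 higher and 2 lower with the block. For the comparisons of Tu 405 min, calls over all genes with the block, alone or with the offset, are not given here. The same holds for DESeq2 size factors in any comparison. Whether members lost more calls than other genes in those fits is therefore not shown.

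Calls over all genes were 0 at HS 45 min and became 451 with DESeq2 and 1345 with the shared fit. In the same order they were 941, 2159 and 3243 at HS 135 min, with 2519 for the GC offset and 0 for the block. At Tu 45 min they were 786, with 1843 for DESeq2, 1941 for the GC offset and 21 for the block. At Tu 135 min they were 17, with 665 for DESeq2, 411 for the shared fit, 308 for the GC offset and 0 for the block, alone or with the offset. HS against Tu gave 270, with 1256, 1771 and 1503 for DESeq2, the shared fit and the GC offset and 0 for the block, alone or with the offset.

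Leaving out 1 library gave 0 to 7 members higher, 0 to 8 lower and 0 to 5786 of all genes at HS 45 min. The ranges were 0 to 2, 0 to 2 and 11 to 2467 at HS 135 min, 0 to 2, 0 to 1 and 58 to 2499 at Tu 45 min, 0, 0 and 0 to 61 at Tu 135 min, 6 to 15, 1 to 6 and 4067 to 7897 at Tu 405 min, 0, 0 to 1 and 0 to 364 for HS against Tu, and 5 to 18, 2 to 6 and 3547 to 8126 for Tu 405 against 135 min. The lowest count of members higher at Tu 405 min (6) was without its replicate 2, and the highest (15) without reference replicate 1. The cause of these changes was not tested. The block rests on shared replicate numbers only, since same-numbered libraries did not deviate together outside Tu 135 min (for HS 135 min r = -0.385, -0.365 and 0.278). Depth limited mainly Atg10 and Atg4c, with lowest counts of 6 and 97 reads.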
